A study of Mus musculus with 12 samples.

Results

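The 10 genes described here are the Notch receptors Notch1, Notch2 and Notch3 and the Notch targets Hes1, Hes5, Heyl, Nrarp, Dtx1, Ptcra and Deptor, read from a gene-level RNA-seq count table of mouse T-cell acute lymphoblastic leukemia (T-ALL). They were taken by symbol, and all 10 were found among 27179 gene identifiers. The cells came from a single primary leukemia, ALL101, of genotype Vav-tTA;TRE-GFP-shIkaros, which was carried in recipient mice and recovered from their spleens by cell sorting. Vav is a promoter active in blood cells. It drives the tetracycline transactivator tTA, which switches on a hairpin RNA against Ikaros (gene Ikzf1) linked to green fluorescent protein (GFP), and doxycycline (Dox) switches the hairpin off. All 6 mice carried this leukemia and hairpin: 3 were untreated, with cells labelled GFPhigh, and 3 had Dox for 3 days, with cells labelled GFPmid. Treatment and sort gate therefore cannot be told apart, and none of the groups shows the effect of Dox without a hairpin. The labels give neither strain nor age of the recipients. Each RNA was sequenced in 2 runs, which were summed, so n is the number of mice.

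Notch receptors are cell-surface proteins that are cut by proteases when a ligand on a neighbouring cell binds them. The released intracellular domain enters the nucleus, joins the DNA-binding protein Rbpj and the coactivator Mastermind, and switches on genes such as Hes1, Nrarp and Dtx1. In the thymus Notch1 directs progenitors to the T-cell fate and drives Ptcra, and activating lesions of Notch1 are common in mouse and human T-ALL. Ikaros recognises a DNA core that overlaps the Rbpj site and is known as a repressor of some Notch targets.

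Values are CPM, read counts scaled to a common library size with TMM, a correction that assumes most genes do not shift in 1 direction. Totals ran from 29904744 to 44949303 counts per mouse, so a gene with 0 counts could still lie at 0.0667 to 0.1 CPM, the value of 3 counts (counting error only). Ikzf1 stood at 150 to 159 CPM in the untreated mice and 1438 to 1523 CPM in the Dox mice, in the direction of the labels. All 16 T-cell markers examined, led by Thy1, were detected in every mouse, and they summed to 6971 to 7217 CPM in untreated and 9777 to 11667 CPM in Dox mice. The 10 B-cell markers summed to 208 to 355 CPM in untreated and 252 to 297 CPM in Dox mice, nearly all of it Ighm. Of the 4 that were tested, 1 was called higher after Dox and 0 lower. Pax5, also on this list, had 0 counts in all mice. The natural killer list summed to at most 0.482 CPM. The library name of untreated mouse 3 holds INJ in place of the sort wording of the other libraries, and whether that mouse was handled alike is not known here. Genes are compared with edgeR's quasi-likelihood test, a log2 fold change is Dox minus untreated ± SE, and a gene is called at an adjusted p under 0.05 over 13134 tested genes.

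After Dox, 5 of the 10 genes were lower and 0 were higher. Notch1, Hes1, Hes5, Ptcra and Deptor fell, by 1.12 to 2.17 log2 units, while Notch2, Notch3, Heyl, Nrarp and Dtx1 did not pass the test. Of all tested genes 50.0% were called and 25.2% were called lower and 24.8% higher, so the share of members called in either direction, 5 of 10, was the same as the background, and their direction was lower in each call. Their median log2 fold change was -1.15, beside -0.0037 over all tested genes. By role, 1 of the 3 receptors and 4 of the 7 targets were lower, with medians of -0.13 and -1.46. All 10 passed the filter on low counts. Hes5 did so through the untreated mice, since Dox mouse 1 lay under the cutoff of 0.299 CPM. The untreated and Dox values did not overlap for 6 of the 10, all with Dox lower (Nrarp and the 5 called genes), where 61.2% of all tested genes do not overlap and 30.9% do so with Dox lower and 30.2% with Dox higher. In RNA of sorted cell populations, fewer cells that express a gene and less RNA per cell cannot be told apart.

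**Figure D1:**
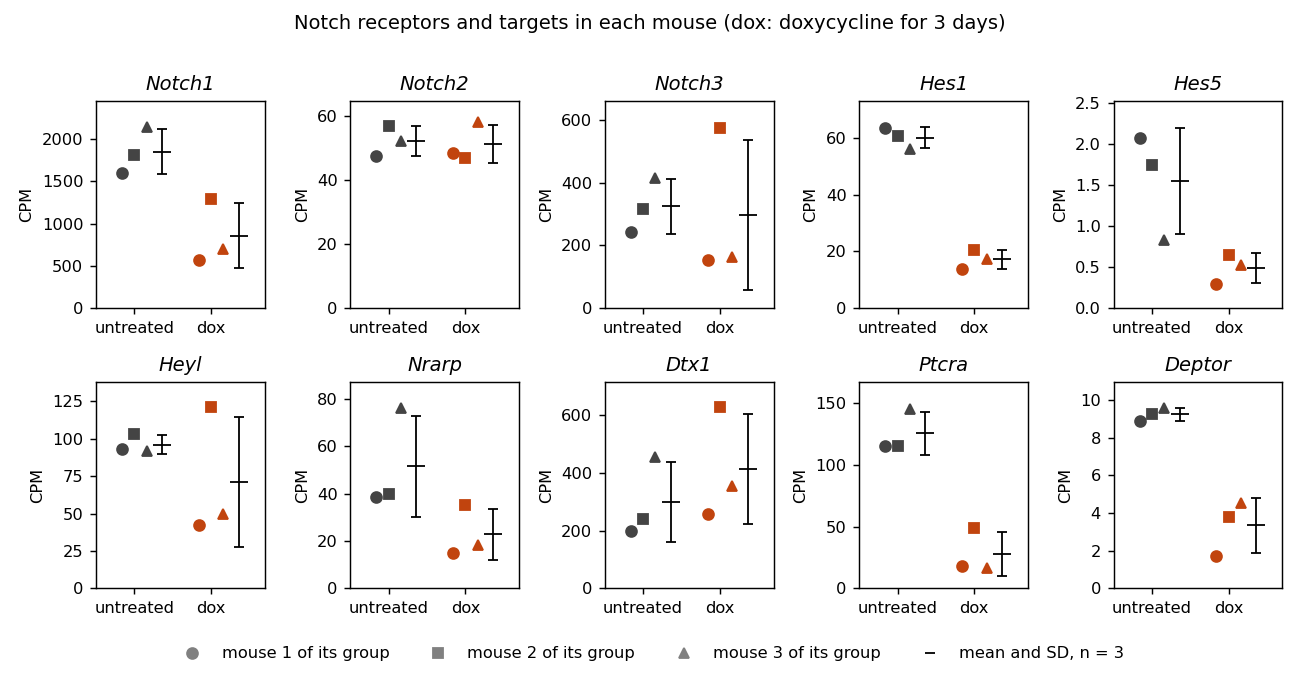
CPM of the 10 genes in each mouse (y axis from 0), with mice 1, 2 and 3 of a group as circle, square and triangle and the mean ± SD (n = 3) as a bar. Dox mouse 2 (orange square) lies above both other Dox mice for 8 of the 10 genes, and untreated and Dox points of Hes1 lie far apart.

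Promoter sequence was examined for the 6-base Rbpj core TGGGAA, which contains the Ikaros core GGGAA. The RefSeq promoter table of GRCm38.p6 held 7 of the 10 genes (all but Hes1, Heyl and Deptor), and the 250 bases before each start were read on both strands. Of the called members, Hes1 and Deptor were thus not read, so the motif cannot be set against the calls. TGGGAA was present in 2 of these 7, Hes5 and Ptcra, and in 21.6% of 32851 promoter windows of the same length. Each of the 2 held it 2 times. Both copies in Hes5 read GTGGGAA, which 5.42% of windows hold. The TGGGAA of 1 copy lies 226 to 221 bases before the start on the opposite strand, and that of the other 82 to 77 bases before it on the gene's strand. In Ptcra both lie on the gene's strand, 84 to 79 and 32 to 27 bases before the start. The core GGGAA alone was present in Notch2 as well, and in 56.2% of all windows. Most of the Dtx1 window (chr5:120711670-120711919, minus strand) lies within the annotated gene, which reaches 120711867. For Notch3, the bases after the start were not matched to its annotated transcripts. Shown are the 30 bases around each Hes5 match, since an annotated Hes5 transcript begins upstream of its 250-base window, and the 250 bases of Ptcra, Notch1 and Nrarp. Hes5 and Ptcra hold the motif, whereas Notch1 and Nrarp hold none here. Notch1 and Nrarp were alike in their pattern across mice (described below), not in level. All sequences shown are given 5′ to 3′ on the gene's strand, with each TGGGAA or its reverse complement in capitals.
Hes5 distal match (chr4:154960685-154960714, plus strand): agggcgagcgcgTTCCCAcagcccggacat
Hes5 proximal match (chr4:154960829-154960858, plus strand): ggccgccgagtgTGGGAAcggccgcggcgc
Ptcra (chr17:46763713-46763962, minus strand): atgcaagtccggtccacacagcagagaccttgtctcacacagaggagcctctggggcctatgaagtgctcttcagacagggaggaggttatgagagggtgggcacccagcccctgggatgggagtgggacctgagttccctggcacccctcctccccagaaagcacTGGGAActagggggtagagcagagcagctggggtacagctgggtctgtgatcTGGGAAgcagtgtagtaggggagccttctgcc
Notch1 (chr2:26503823-26504072, minus strand): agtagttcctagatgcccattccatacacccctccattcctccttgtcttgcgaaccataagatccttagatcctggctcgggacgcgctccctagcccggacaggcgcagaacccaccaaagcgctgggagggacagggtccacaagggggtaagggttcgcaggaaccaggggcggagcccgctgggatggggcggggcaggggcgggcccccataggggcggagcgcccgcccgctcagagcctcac
Nrarp (chr2:25180508-25180757, plus strand): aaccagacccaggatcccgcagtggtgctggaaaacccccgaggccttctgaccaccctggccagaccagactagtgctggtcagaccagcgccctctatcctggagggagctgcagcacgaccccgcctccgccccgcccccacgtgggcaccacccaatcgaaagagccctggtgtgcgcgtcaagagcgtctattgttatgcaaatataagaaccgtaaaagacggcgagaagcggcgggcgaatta
A match is a stretch of letters and not a measured binding site, and no match says only that these letters are not in this window.

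Notch1, the receptor most often mutated in T-ALL, was the most abundant of the 10 per gene length in untreated leukemia. Its level there was 196 ± 28.5 RPKM (reads per kilobase of transcript length, scaled by depth as CPM is; SD, n = 3), and it was above that of every other member in each untreated mouse. Ptcra (97.7 ± 13.4 RPKM) and Dtx1 (80.6 ± 37.1 RPKM) followed, and their ranges overlapped. Hes1 (41.5 ± 2.59 RPKM) and Notch3 (40.9 ± 11 RPKM) also overlapped, as did Heyl (21.2 ± 1.41 RPKM) and Nrarp (20 ± 8.26 RPKM). Notch2, Deptor and Hes5 were the scarcest, at 4.98 ± 0.449, 2.69 ± 0.101 and 1.22 ± 0.507 RPKM. After Dox the order changed: Dtx1 stood first at 111 ± 51.7 RPKM, ahead of Notch1 at 90.2 ± 40.8 RPKM, in each of the 3 Dox mice though with overlapping ranges, and Ptcra came down to 21.6 ± 14.1 RPKM, behind Notch3 (37.3 ± 30.3 RPKM). In the Dox group Ptcra and Heyl overlapped with Notch3 and with Hes1, whereas all Dox values of Notch3 (19.4 RPKM or more) were above those of Hes1 (14.1 RPKM or less). Counts are per whole gene, so shortened Notch1 transcripts cannot be told from full-length ones.

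**Figure D2:**
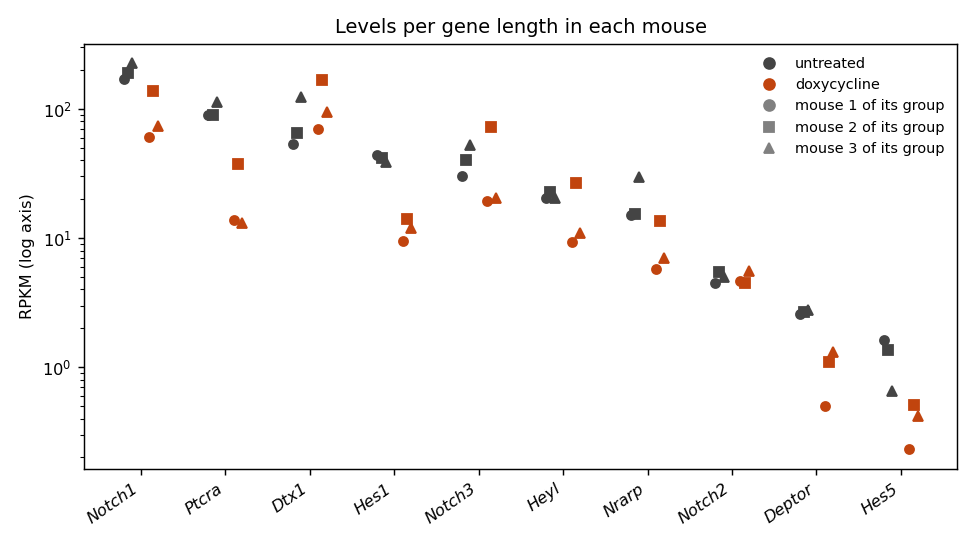
RPKM (log axis) of each gene in the 3 untreated mice (grey) and the 3 Dox mice (orange), ordered by the untreated mean. Notch1 leads in untreated mice, Dtx1 leads in Dox mice, and Notch2 sits at 4.49 to 5.54 RPKM in all 6 mice.

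Notch1 (Entrez ID 18128, protein-coding, chromosome 2 at 26457902 to 26503822 of GRCm38, the mm10 assembly) fell after Dox. The untreated mice held 1606, 1815 and 2143 CPM and the Dox mice 575, 1298 and 695 CPM. The groups did not overlap, but Dox mouse 2 lay closer to the lowest untreated mouse than to the other Dox mice. The mean went from 1855 ± 271 to 856 ± 387 CPM, which is -1.12 ± 0.33 on the log2 scale (edgeR adjusted p = 0.039). This call depended on the set of mice: leaving out any 1 mouse other than Dox mouse 2 gave adjusted p-values of 0.063 to 0.104, and leaving out Dox mouse 2 gave -1.53 ± 0.15 (edgeR adjusted p = 0.00042). With no filter on low counts the adjusted p was 0.087.

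Notch3 (Entrez ID 18131, chromosome 17 at 32120820 to 32166896), a receptor that is itself induced by Notch1 signals in T-cell progenitors, did not pass. It was at 241, 318 and 415 CPM in the untreated mice and at 154, 574 and 162 CPM in the Dox mice. Dox mouse 2 exceeded all 3 untreated mice, whereas Dox mice 1 and 3 lay below all of them. The log2 fold change was -0.13 ± 0.61, with a 95% interval of -1.68 to 1.42 (edgeR adjusted p = 0.876). Without Dox mouse 2 it was -1.03 ± 0.25 (edgeR adjusted p = 0.027), and without untreated mouse 3, Dox mouse 1 or Dox mouse 3 it was 0.08, 0.18 or 0.17.

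Notch2 (Entrez ID 18129, chromosome 3 at 98013538 to 98150367), which serves marginal zone B cells and myeloid cells, was nearly level across the mice. It was at 47.6, 57.0 and 52.3 CPM in untreated and 48.6, 47.1 and 58.2 CPM in Dox mice. The ranges overlapped almost fully. Its log2 fold change was -0.03 ± 0.10 (95% interval -0.26 to 0.21, edgeR adjusted p = 0.842), and its sign turned when untreated mouse 2, Dox mouse 1 or Dox mouse 2 was left out.

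Among the targets, Hes1 (Entrez ID 15205, chromosome 16 at 30065357 to 30067796), a basic helix-loop-helix repressor, showed the tightest fall. It was at 63.5, 60.8 and 56.1 CPM in the untreated mice and 13.7, 20.5 and 17.3 CPM in the Dox mice. The highest Dox mouse was well below the lowest untreated mouse. Hes1 fell by 1.81 ± 0.14 log2 units, or 3.5-fold (edgeR adjusted p = 8.7e-05). The related repressor Hes5 (Entrez ID 15208, chromosome 4 at 154960626 to 154962372) was scarce, with 25 to 62 counts per untreated mouse and 10 to 29 counts per Dox mouse. Hes5 was at 2.08, 1.75 and 0.832 CPM in untreated and 0.294, 0.644 and 0.529 CPM in Dox mice, and fell by 1.64 ± 0.41 log2 units (edgeR adjusted p = 0.011).

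Ptcra (Entrez ID 19208, chromosome 17 at 46755663 to 46763712) encodes the pre-T-cell receptor alpha chain, which pairs with a rearranged beta chain in immature thymocytes. It fell more than any other member. The untreated mice held 115, 115 and 145 CPM and the Dox mice 17.8, 48.6 and 16.7 CPM. All Dox mice were below all untreated mice, and Dox mouse 2 was again the highest of its group. The log2 fold change was -2.17 ± 0.48 (edgeR adjusted p = 0.015), and it was -2.85 ± 0.13 without Dox mouse 2 (edgeR adjusted p = 2.0e-05). Without untreated mouse 2 Ptcra did not pass (edgeR adjusted p = 0.053). Deptor (Entrez ID 97998, chromosome 15 at 55112317 to 55259273), an inhibitor that binds the kinase mTOR, was at 8.89, 9.25 and 9.58 CPM in untreated and 1.73, 3.77 and 4.51 CPM in Dox mice. The untreated mice were nearly equal, and the Dox mice were all lower. Deptor fell by 1.46 ± 0.31 log2 units (edgeR adjusted p = 0.0058).

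Heyl, Nrarp and Dtx1 did not pass, and in each of them Dox mouse 2 stood far above its group. Heyl (Entrez ID 56198, chromosome 4 at 123233556 to 123249870), a Hes-related repressor, was at 92.9, 103 and 91.8 CPM in untreated and 42.5, 121 and 49.5 CPM in Dox mice. Dox mouse 2 was thus above every untreated mouse and the other Dox mice below every one. Its log2 fold change was -0.43 ± 0.43 (95% interval -1.53 to 0.66, edgeR adjusted p = 0.443), and -1.05 ± 0.10 without Dox mouse 2 (edgeR adjusted p = 0.00016). Nrarp (Entrez ID 67122, chromosome 2 at 25180758 to 25183339) encodes an ankyrin-repeat protein that binds the Notch intracellular domain and limits its activity. It was at 38.8, 39.7 and 76.2 CPM in untreated and 14.9, 35.2 and 18.2 CPM in Dox mice. The groups did not overlap, though Dox mouse 2 came close to untreated mice 1 and 2. The log2 fold change of Nrarp was -1.18 ± 0.45 (95% interval -2.31 to -0.04, edgeR adjusted p = 0.081), and -1.63 ± 0.41 without Dox mouse 2 (edgeR adjusted p = 0.036). With all mice it passed with DESeq2 (adjusted p = 0.036), with limma-voom and quality weights (adjusted p = 0.039) and with an edgeR fit that is not robust (adjusted p = 0.029).

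Dtx1 (Entrez ID 14357, chromosome 5 at 120680203 to 120711867), encoding the ubiquitin ligase Deltex1, was the 1 member with a positive log2 fold change. It was at 200, 242 and 457 CPM in untreated and 258, 628 and 355 CPM in Dox mice. The ranges overlapped, and the fold change of 0.47 ± 0.47 did not pass (95% interval -0.73 to 1.66, edgeR adjusted p = 0.450). Without Dox mouse 2 it was 0.05 ± 0.46 (edgeR adjusted p = 0.947). Relative to the untreated mean, Dox mice 1 and 3 together stood at 1.02 for Dtx1 and also for Notch2. They stood at 0.343 for Notch1, 0.486 for Notch3, 0.321 for Nrarp, 0.257 for Hes1 and 0.138 for Ptcra.

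**Figure D3:**
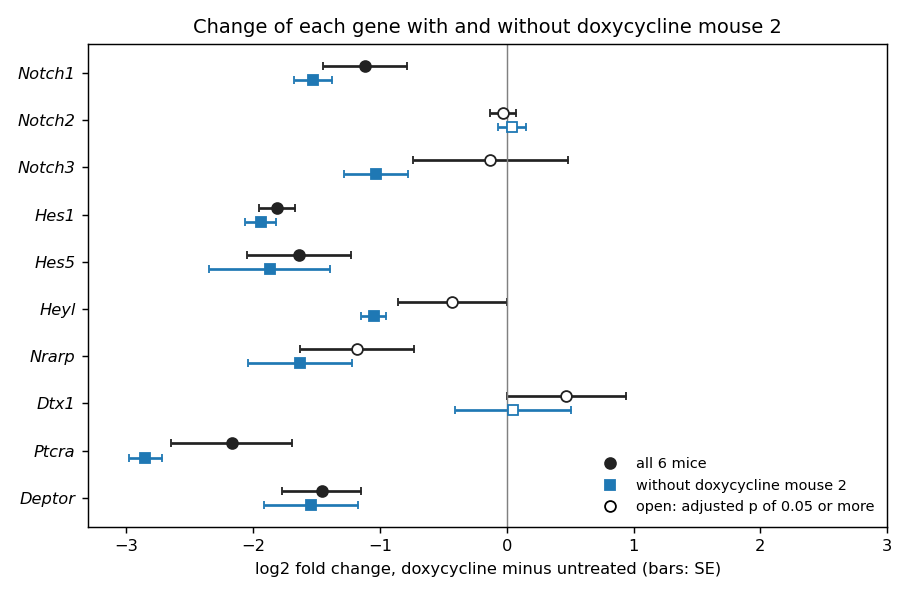
Log2 fold change (Dox minus untreated, bars are SE) of each gene in the edgeR fit of all 6 mice (black circles) and without Dox mouse 2 (blue squares), with open symbols where the adjusted p was 0.05 or more. Notch3, Heyl and Nrarp are open with all mice and filled without Dox mouse 2, and Notch2 and Dtx1 are open in both.

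Without Dox mouse 2, 8 of the 10 genes were lower and 0 higher, in a fit where 45.5% of 13266 tested genes were called and 22.2% were called lower. Notch2 and Dtx1 were the members not called. Among all genes 23.3% were called higher. Dox mouse 2 was the highest of its group for 8 of the 10 genes, so leaving it out lowers their Dox mean by construction. The fit without it is therefore no independent support for a fall. Leaving out untreated mouse 3 as well also gave 8 lower members (Deptor, Hes1, Hes5, Heyl, Notch1, Notch3, Nrarp and Ptcra), beside 24.7% of all genes lower, 24.8% higher and 49.5% called. Leaving out untreated mouse 2 alone gave 3 (Deptor, Hes1 and Hes5), beside 18.3% lower, 18.1% higher and 36.4% called. Without untreated mouse 1, untreated mouse 3, Dox mouse 1 or Dox mouse 3 alone, 4 were lower each time (Deptor, Hes1, Hes5 and Ptcra). In those fits 19.6%, 23.6%, 20.5% and 22.9% of all genes were lower, and 39.0%, 46.8%, 41.0% and 46.4% were called.

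The mice of a group differed in these genes together, so the receptors and targets were read mouse by mouse. With 3 mice in each of 2 separate groups, no correlation across mice was computed, and the values are given as a description. In Dox mouse 2, Notch3 was 3.64 times the mean of Dox mice 1 and 3, Ptcra 2.82 times, Heyl 2.63 times, Nrarp 2.13 times, Dtx1 2.05 times and Notch1 2.04 times. These 6 of 10 genes exceeded 2-fold, which 1.92% of all tested genes did. Hes5 stood at 1.56 times, Hes1 at 1.32, Deptor at 1.21 and Notch2 at 0.883. Dox mouse 2 was the highest of its group for 8 of the 10 genes and for 36.5% of all tested genes. The exceptions were Notch2 and Deptor, which were highest in Dox mouse 3.

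Untreated mouse 3 had the highest value of its group for 6 of the 10 genes: Notch1, Notch3, Nrarp, Dtx1, Ptcra and Deptor, beside 36.8% of all tested genes. Relative to the mean of untreated mice 1 and 2, Dtx1 stood at 2.07, Nrarp at 1.94, Notch3 at 1.48, Ptcra at 1.26 and Notch1 at 1.25. Untreated mouse 3 was the lowest of its group for Hes1, Hes5 and Heyl, at 0.902, 0.435 and 0.935 of the mean of the other mice. These are 3 of the 10 genes, beside 40.6% of all tested genes. For 5 of the 10 genes (Notch1, Notch3, Nrarp, Dtx1 and Ptcra) both Dox mouse 2 and untreated mouse 3 were the highest of their groups, which held for 16.3% of all tested genes.

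**Figure D4:**
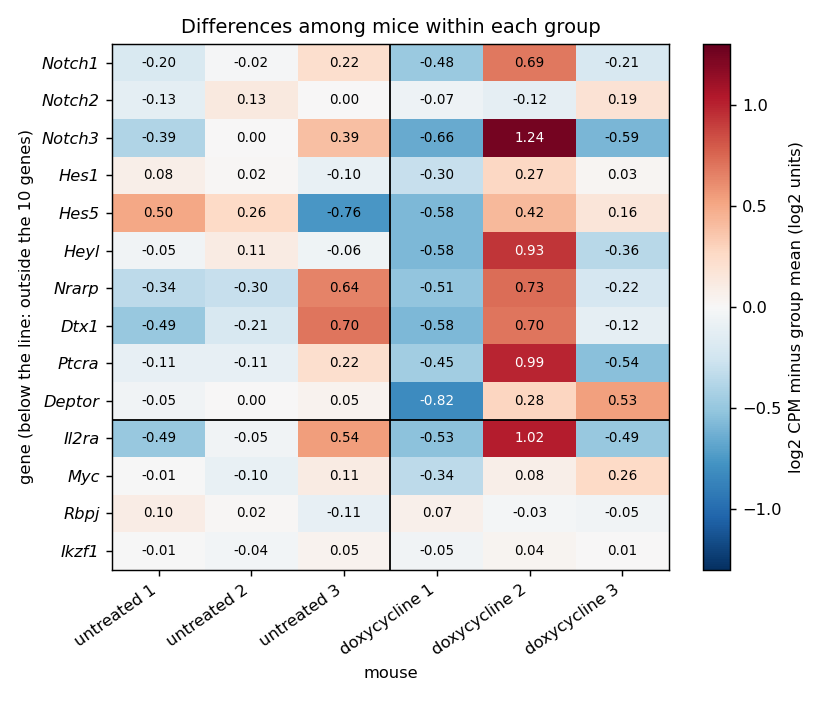
Log2 CPM of each gene in each mouse minus the mean of its group, so that each row sums to about 0 within the untreated and within the Dox mice. Notch1, Notch3, Nrarp, Dtx1, Ptcra and Il2ra are positive in both untreated mouse 3 and Dox mouse 2. Deptor (0.05 and 0.28), Myc (0.11 and 0.08) and Ikzf1 (0.05 and 0.04) are also positive in both. Ikzf1 and Rbpj stay between -0.11 and 0.10 in all mice.

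Ikzf1 was likewise highest in untreated mouse 3 and Dox mouse 2, but by little: it was 1.04 times the mean of the other Dox mice in Dox mouse 2 and lay within 0.05 log2 units of its group mean in every mouse. Its part in the differences was not tested. The CPM values of the 2 runs of the same RNA differed by at most 1.14 times for all members but the scarce Hes5, where the largest ratio was 1.77. The summed marker lists gave no comparable gap for Dox mouse 2. The T-cell list was at 11667 CPM there against 11050 and 9777 CPM in Dox mice 1 and 3. Single markers differed in both directions. Csf1r was at 21.2 against 12.9 and 12.2 CPM, Cd8a at 2197 against 1846 and 1385 CPM and Cd4 at 579 against 437 and 343 CPM. Cd8a and Cd4 were also highest in untreated mouse 3. Cd28 was lowest in Dox mouse 2, at 332 against 535.5 and 415 CPM. Summed B-cell markers, of which 8 of 10 were under 1 CPM in all mice, were at 297 CPM in Dox mouse 2 and 252 and 267 CPM in Dox mice 1 and 3, nearly all of it Ighm. The 11 myeloid markers, led by Itgam, summed to 93.2 CPM against 80.6 and 72.0 CPM, the 7 erythroid markers to 88.9 against 112 and 82.2 CPM, and the 9 stromal and endothelial markers to 360 against 363 and 367 CPM. Of those 9, 5 were under 1 CPM in all mice, and the tested ones moved both ways between the groups. After Dox 3 of 4 were higher, among them Pecam1 (134 to 206 CPM), and Pdgfrb was lower (136 to 17.9 CPM). Untreated mouse 3 did differ from its group in such lists, with 52.9 CPM of erythroid markers against 13.1 and 7.38 CPM and 208 CPM of B-cell markers against 355 and 354 CPM. Between the groups, summed myeloid markers were at 27.2 to 48.7 CPM in untreated and 72.0 to 93.2 CPM in Dox mice. The myeloid genes did not move 1 way: 4 of 10 tested were higher, led by Itgam (9.86 to 44.1 CPM), 3 were lower (Mpo, S100a8 and S100a9), and the median log2 fold change was -0.03. Summed erythroid markers were at 7.38 to 52.9 CPM in untreated and 82.2 to 112 CPM in Dox mice. Dendritic markers summed to 0.604 to 0.765 and 1.73 to 2.2 CPM. Of these 6 markers 5 were under 1 CPM in all mice, and only Flt3 was tested (0.44 to 1.5 CPM). The 13 mitochondrially encoded genes summed to 12868 to 15547 CPM in untreated and 20846 to 23546 CPM in Dox mice. The part of cells that express the listed markers and of mitochondrial RNA in the members' values was not tested.

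The genes closest to Notch1 in pattern were sought by the root mean square difference of centred log2 CPM over the 6 mice, among 9409 genes of at least 5 CPM. They were Cacng4 (0.13), Arsi (0.15), H2-T3 (0.16), Cldn4 (0.18) and Adgrg1 (0.20), where the median gene differed by 0.71. Among the members Nrarp was the nearest to Notch1, at 0.21 and rank 9, followed by Heyl at 0.35, and Dtx1 was the farthest at 0.87. H2-T3, an MHC class Ib gene, was at 674, 749 and 762 CPM in untreated and 281, 481 and 324 CPM in Dox mice. The genes closest to Notch3 were Pde10a (0.19), Tmem132b (0.22), Hhat (0.23), Nkd1 (0.25) and Il2ra (0.25), and Heyl (0.31) came at rank 7. Il2ra, the interleukin-2 receptor alpha chain CD25 and a Notch-responsive gene of early thymocytes, was at 237, 324 and 486 CPM in untreated and 237, 699 and 245 CPM in Dox mice. As for Notch3, untreated mouse 3 and Dox mouse 2 were its high mice, and its log2 fold change of 0.17 ± 0.54 did not pass (edgeR adjusted p = 0.810).

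The rest of the pathway was read from lists of 90 further genes, of which 74 were tested. Of these 20 were lower and 20 higher, or 54.1%, near the 50.0% of all tested genes, and their median log2 fold change was 0.09. Log2 fold changes of the receptor-processing genes ran from -0.27 to 0.47 and those of the other T-lineage targets from -2.97 to 0.72.

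**Figure D5:**
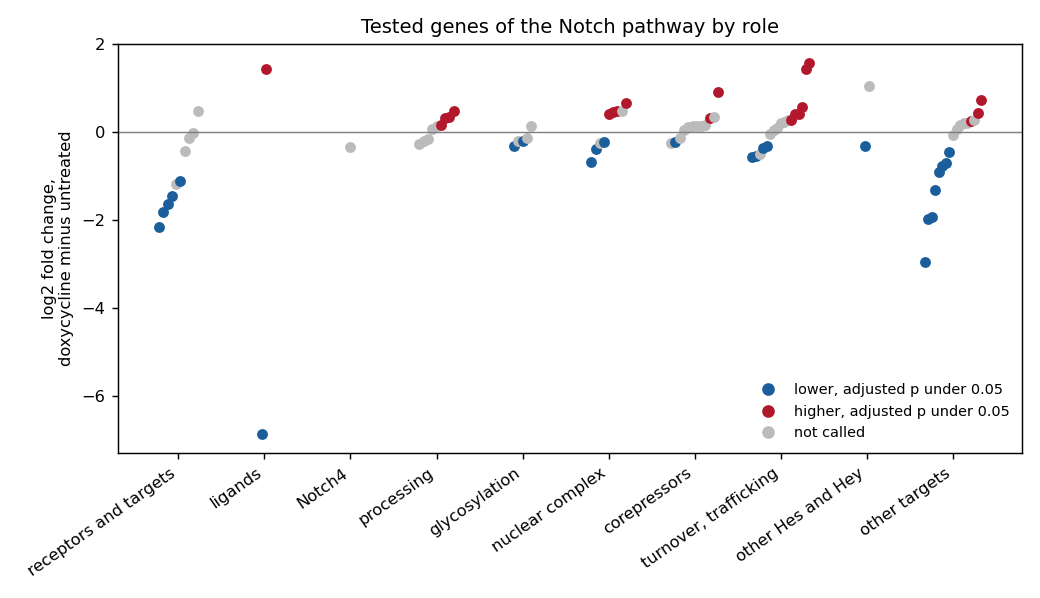
Log2 fold change (Dox minus untreated) of each tested pathway gene by role, with the 10 receptors and targets at the left; blue is lower and red higher at an adjusted p under 0.05. Processing enzymes lie within 0.5 log2 units of 0, whereas Il7r lies at -2.97 and Dlk1, a fitted value resting on 1 to 4 counts per Dox mouse, at -6.88.

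Ligand genes were scarce in the leukemia cells. Dll1, Dll3, Dll4, Jag1 and Dlk2 were not tested, with Dll1, Dll3, Dll4 and Dlk2 at or under 0.201 CPM and Jag1 at 0.2 to 0.794 CPM in every mouse. Jag2, a canonical ligand, rose from 3.75 ± 0.22 to 10.2 ± 1.82 CPM, by 1.44 ± 0.17 log2 units (edgeR adjusted p = 0.00036). Dlk1, a ligand-like protein without the canonical Notch-binding domain, fell from 254, 373 and 48 counts to 1, 2 and 4 counts (edgeR adjusted p = 0.0025). Dlk1 entered the test through the untreated mice, since all 3 Dox mice lay under the cutoff of 0.299 CPM, so its fitted fold change is no measure of size. With limma-voom and quality weights it did not pass (adjusted p = 0.058). Notch4, the remaining receptor, was at 0.483 to 0.898 CPM and did not pass (edgeR adjusted p = 0.401).

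Of 9 tested receptor-processing genes, 4 rose and 0 fell (44.4% called, beside 50.0% of all tested genes, 24.8% higher and 25.2% lower). Among them were the shedding proteases Adam17 (0.47 ± 0.09 log2 units) and Adam10 (0.33 ± 0.06) and the gamma-secretase subunit Ncstn (0.31 ± 0.07), with edgeR adjusted p-values of 0.0026, 0.0033 and 0.0079. Aph1a, another subunit, had -0.20 ± 0.12 (edgeR adjusted p = 0.202). Of the 5 glycosyltransferase genes that modify the receptors, 2 fell and 0 rose (40% called, beside 50.0% of all tested genes). Poglut1 fell by 0.33 ± 0.07 on the log2 scale and Pofut1 by 0.20 ± 0.07 (with edgeR, adjusted p = 0.0055 and 0.032). Pofut1 did not pass when any 1 mouse was left out. The Fringe genes Mfng, Rfng and Lfng had log2 fold changes of -0.20, 0.13 and -0.13 and did not pass (edgeR adjusted p = 0.057, 0.260 and 0.770).

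In the nuclear complex, 3 of 9 tested genes fell and 4 rose (77.8% called, beside 50.0% of all tested genes). Rbpj, the DNA-binding partner of Notch, averaged 43.6 ± 3.23 CPM without Dox and 33.4 ± 1.5 CPM with it. It fell by 0.39 ± 0.08 on the log2 scale (edgeR adjusted p = 0.0052). The Mastermind gene Maml1 rose by 0.47 ± 0.09, as did the acetyltransferase genes Ep300 (0.46 ± 0.08) and Kat2b (0.66 ± 0.12), whereas Kat2a, a further acetyltransferase gene, fell by 0.68 ± 0.09 (edgeR adjusted p = 0.0037, 0.0022, 0.0030 and 0.0005). Among 12 tested corepressor genes 25% were called, beside 50.0% of all tested genes. Tle4 and Ctbp1 rose, by 0.91 ± 0.22 and 0.32 ± 0.08, and Hdac2 fell by 0.23 ± 0.08 (edgeR adjusted p = 0.0089, 0.012 and 0.032). Ctbp1 did not pass without untreated mouse 1 (edgeR adjusted p = 0.055) or 2 (0.052), and Hdac2 did not pass without any 1 mouse other than untreated mouse 3 or Dox mouse 1. Hdac1 had 0.15 ± 0.07 and did not pass (edgeR adjusted p = 0.102).

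Of 17 tested genes of receptor turnover and trafficking, 4 fell and 6 rose (58.8% called, beside 50.0% of all tested genes). The ubiquitin ligase genes Itch and Cbl rose by 0.56 ± 0.07 and 0.40 ± 0.06 log2 units, and the kinase gene Aak1 by 0.40 ± 0.07. Mib1, a ligase that acts on Notch ligands, fell by 0.56 ± 0.09, and Cdk8, a kinase that marks the Notch intracellular domain for degradation, by 0.33 ± 0.07 (edgeR adjusted p = 0.00054, 0.0012, 0.0021, 0.0015 and 0.006). Of the other Hes and Hey genes, 2 of 8 were tested: Hes6 fell by 0.32 ± 0.11 (edgeR adjusted p = 0.033), and Bhlhe40 had 1.05 ± 0.39 (edgeR adjusted p = 0.051). Hes6 did not pass without untreated mouse 1 or 2 or Dox mouse 1 or 3, at adjusted p-values of 0.090 to 0.112.

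Of 17 other tested genes listed as Notch targets in T-lineage cells, 8 fell and 3 rose (64.7% called, beside 50.0% of all tested genes). Their median log2 fold change was -0.06, beside -0.0037 over all tested genes. Igf1r, a growth factor receptor gene, fell by 1.97 ± 0.16 log2 units, Runx1 by 0.70 ± 0.06, Myc by 1.33 ± 0.15 and Skp2, a subunit of a ubiquitin ligase that promotes cell-cycle entry, by 0.77 ± 0.10. Trib2, a pseudokinase gene, rose by 0.72 ± 0.10 (edgeR adjusted p = 0.00012, 0.00012, 0.00044, 0.0005 and 0.00075). In Dox mouse 2, Myc and Igf1r stood at 1.06 and 0.799 times the mean of the other Dox mice, as against 2.04 for Notch1. Among the 74 tested pathway genes, Il2ra, Maml3 and Notch4 exceeded 1.5 times that mean (2.9, 1.92 and 1.75 times), or 4.05%, where 5.44% of all tested genes and 7 of the 10 members did. In the other direction, 5 of the 74 pathway genes (Lfng, Neurl1b, Il7r, Gata3 and Relb), or 6.76%, were over 1.5-fold below that mean, beside 4.98% of all tested genes and 0 members.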

How the data were processed

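RNA-seq counts were analysed for 6 mice with ALL101 T-ALL, 3 untreated and 3 given doxycycline. Groups came from the sample titles. The authors deposited raw read counts per Entrez gene with a gene length, per the file headers. The tools named are featureCounts and CASAVA 1.8.1, and the build is mm10, per the submitters' processing notes. Not given in the sources used here are the aligner, annotation, strand setting and treatment of reads with several matches. Long noncoding or microRNA genes overlap Notch1, Notch2, Notch3 and Deptor, so reads may be shared. The whole-series and single-library tables held the same counts in 12 of 12 libraries. Symbols were matched for 93.1% of identifiers through RefSeq GRCm38 and GENCODE tables.

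The 2 runs of a mouse were summed. Genes that passed filterByExpr were tested with edgeR 4.0.16 in R 4.3.3 (TMM, robust quasi-likelihood fit), with Benjamini-Hochberg adjustment over 13134 genes. SE was computed from the fold change and its F statistic. RPKM divides CPM by the deposited length. Distances of pattern used log2 CPM with a prior count of 2. The labels do not say whether the mice were housed or sorted apart, so p-values measure the spread between these samples. The fit was checked on simulated counts, where the share of false calls came out above the nominal level and small changes were often missed. Alternatives were other size factors, filters, DESeq2 1.42.0, limma-voom 3.58.1, single runs, a replicate block and leaving out mice.

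The members and lists were chosen with earlier results of these data known. Named genes were the members, Ikzf1, all ligands, up to 5 genes of the smallest p per role list, the 5 genes nearest to Notch1 and to Notch3, and the top gene of each marker list. Pax5, Mpo, S100a8, S100a9, Csf1r, Cd4, Cd8a, Cd28, Pdgfrb, Maml3, Neurl1b, Il7r, Gata3 and Relb were named outside this rule, after their values were seen. Not every gene picked by this rule is reported here.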

Additional observations from a re-analysis of the deposited data

How the results depend on the processing

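The number of members called lower was 5 to 6 under other size factors, tests and single runs, beside 23.3% to 28.4% of all tested genes. It was 4 with no filter, beside 18.2% of all genes. With a filter of over 1 CPM in 3 mice it was 4 of 9 tested members, beside 26.1% of all genes. Leaving out 1 mouse gave 3 to 8, beside 18.3% to 23.6% of all genes, and leaving out untreated mouse 3 and Dox mouse 2 together gave 8, beside 24.7%. No member was called higher under any of these settings, where 17.5% to 28.1% of all genes were. Under the alternatives, 166 values of the members' log2 fold changes kept their direction and side of the threshold, 9 came to pass the threshold, 7 no longer passed it, and 7 turned sign. Those that turned belonged to Notch2 and Notch3, which did not pass with all mice. Leaving out 1 mouse, Notch2 ranged from -0.12 to 0.04 and Notch3 from -1.03 to 0.18, and Notch2 was 0.04 without untreated mouse 3 and Dox mouse 2. Of the other named genes, Lfng was 0.11 and Il2ra -0.13 with limma-voom and quality weights. Leaving out 1 mouse gave -0.41 to 0.25 for Lfng and -0.52 to 0.48 for Il2ra, and Il2ra was -0.21 without both mice. The cause was not tested. Mfng passed with library totals only (adjusted p = 0.049).

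Replicate numbers 1 to 3 are shared by the groups, but the labels tie no numbers to a litter or day. For the correlations given here, the group mean of each gene was first subtracted from its log2 CPM. These deviations over 13134 genes correlated at 0.16, -0.01 and -0.10 between same-numbered mice. The deviations of untreated mouse 3 correlated best with those of Dox mouse 2 (0.17). With a replicate block, 5 members, 3156 of all genes and 19 other pathway genes were lower. Pofut1 lost its call (adjusted p = 0.059) and Bhlhe40 passed (0.049). Depth limits Hes5, Jag1 and the scarce ligands.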
